A study of Mus musculus with 12 samples.

Results

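Noncoding host genes of small nucleolar RNAs (snoRNAs) were followed in WT and Faf2 KO neural progenitor cells. The 10 genes, of 57010 in the deposited table, were Gas5, Snhg1, Snhg3, Snhg5, Snhg6, Snhg8, Snhg12, Epb41l4aos, Zfas1 and 1110038B12Rik. They were taken as noncoding snoRNA hosts by name, and 1110038B12Rik was selected on measured values, since it was a leading lower gene in RA-treated KO cells against RA-treated WT cells. All 10 passed the filter on low counts, which kept 16502 genes.

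The cells were NE-4C, an immortalized progenitor line from embryonic mouse brain that lacks p53, so that every group shared this loss. Bulk RNA-Seq was made from 12 libraries, 3 from separate passages in each of 4 groups, so that p-values measure the spread between passages of a line. WT NO and KO NO cells were untreated and collected on day 0, and WT RA and KO RA cells received all-trans retinoic acid (RA) at 1 µM for 24 h, were returned to basal media and were collected on day 3. RA-treated cells thus differed from untreated cells in both treatment and day of collection. The KO cells carried a CRISPR deletion of Faf2 exon 4 and descended from 1 picked colony, so differences between genotypes cannot be told apart from differences between 2 lines.

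snoRNAs guide the chemical modification and processing of ribosomal RNA, and in mammals most are cut from introns of a longer host transcript. Many hosts, coding or not, begin with a terminal oligopyrimidine (TOP) tract, a C at the first base followed by a run of C or T, which they share with the mRNAs of ribosomal proteins and which places translation of such transcripts under mTOR and the RNA-binding protein LARP1. The spliced noncoding hosts are loaded onto ribosomes, hold short reading frames and are typical substrates of nonsense-mediated decay, so their level depends on synthesis and on turnover. Gas5 was first found as a transcript that builds up in growth-arrested cells, and Snhg1 is the host of the U22 snoRNA.

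The 10 hosts held 35 annotated snoRNA genes on their own strand (GRCm39, GENCODE). Gas5 (chr1:160861793-160866118, plus strand) held 10 of them and Snhg1 (chr19:8700319-8703812, plus) held 8. Snhg12 (chr4:132035905-132038762, plus) held 5, among them Snora44 and Snora61, and Zfas1 (chr2:166903619-166907799, plus) held 3, one of them Snord12. Snhg3 (chr4:132075325-132080997, minus), host of Snora73a and Snora73b, Snhg5 (chr9:88377321-88405615, minus), host of Snord50a and Snord50b, and 1110038B12Rik (chr17:35149718-35171867, minus), host of Snord52, held 2 each. Snhg6 (chr1:9926809-10014504, minus), host of Snord87, Snhg8 (chr3:123301192-123302578, minus), host of Snora24, and Epb41l4aos held 1 each. The snoRNAs lay in introns of the canonical transcript, except those of Snhg12, whose canonical model is a single exon that contains them. Exons of Gas5 (Zbtb37), Snhg1 (Slc3a2), Snhg6 (Mcmdc2), Epb41l4aos (Epb41l4a), Zfas1 (Znfx1) and 1110038B12Rik (Neu1) overlap those of protein-coding genes on the opposite strand. Whether the counting used the strand is not given in the sources used here, so reads of these partners cannot be surely told apart from those of the hosts.

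The bases around the transcription start are shown because most of the hosts, though not all, hold a TOP-like tract or TATA there. The start was taken as the one most often annotated among a gene's transcripts, a choice made after the canonical starts had been looked at, and the windows run from 40 bases before it to 20 bases after it. Capitals mark a C followed by at least 4 bases that are each C or T, and the letters TATA between 40 and 20 bases before the start. Only the gene's own strand was read, and the windows for both motifs do not overlap. Gas5 (chr1:160862696-160862756), Snhg12 (chr4:132035947-132036007), Zfas1 (chr2:166905102-166905162) and 1110038B12Rik (chr17:35171424-35171484) are shown because they hold both motifs with the tract at the start itself, Snhg5 (chr9:88404924-88404984) because its tract begins 3 bases later, and Snhg1 (chr19:8700811-8700871) because it holds TATA without such a tract.
Gas5: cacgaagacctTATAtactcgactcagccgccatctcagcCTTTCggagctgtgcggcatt
Snhg12: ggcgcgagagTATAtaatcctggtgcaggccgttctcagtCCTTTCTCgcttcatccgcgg
Zfas1: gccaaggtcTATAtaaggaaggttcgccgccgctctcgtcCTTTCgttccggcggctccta
1110038B12Rik: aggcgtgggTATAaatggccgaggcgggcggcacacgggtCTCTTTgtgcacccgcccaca
Snhg5: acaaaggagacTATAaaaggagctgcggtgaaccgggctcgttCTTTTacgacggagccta
Snhg1: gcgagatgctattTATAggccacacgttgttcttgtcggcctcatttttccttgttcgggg

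The tract stood at the start in 6 of the 10 hosts, the 4 above with Snhg6 and Epb41l4aos (gene at chr18:33927232-33932266, plus), and within 5 bases of it in 7. Of the 14675 tested genes with a start, 4.14% held it at the start and 20.6% within 5 bases. Of all 54641 lncRNA and protein-coding genes, 3.45% and 19.9% did. TATA was present in 7 of the 10 hosts, against 2.98% of tested genes and 6.02% of all lncRNA and protein-coding genes. Snhg1, Snhg3 and Snhg8 held no such tract within 5 bases of the start used. The start of Snhg3 rested on 1 of 5 annotated transcripts and that of Gas5 on 80 of 229. These matches describe annotated windows and say nothing about where transcription began in these cells. Among 13 other noncoding hosts with a start, 1 held the tract at the start and 5 within 5 bases, and 2 held TATA. Among 29 protein-coding hosts, mostly genes of ribosomal proteins and translation factors, these numbers were 3, 8 and 7.

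Levels are given as CPM (counts scaled to a common library total) with TMM factors, which align the bulk of genes between libraries. The deposited counts are already corrected for transcript length, so CPM values can be compared between genes. Library totals ran from 17370049 to 30738694 counts, and each member rested on 490 to 30570 estimated counts in a library. The library KO RA replicate 3 stood apart before any comparison was made. Its TMM factor was 0.394, against 0.872 to 1.28 in the other 11 libraries, and its genes deviated from the rest of its group by a median of 1.20 on the log2 scale, against 0.188 to 0.664. Genes of ribosomal proteins took 27.8% of its counts and 16.9% to 25.6% elsewhere, and mitochondrial genes took 23.5% and 9.10% to 17.7%. No counting interval is given for these shares, since the deposited values are scaled by length. Faf2 itself had 36.0 to 50.0 CPM in WT NO, 35.1 to 49.1 in WT RA, 21.0 to 25.4 in KO NO and 36.1, 34.3 and 18.7 in KO RA replicates 1, 2 and 3. The paper reported lower Faf2 mRNA in KO cells, and KO NO lay below both WT groups here. KO RA replicate 1 lay within the range of WT RA, however, and replicate 2 just below it. The deletion of 1 exon need not remove the transcript, so this level is a weak check of the labels. All 8 neural progenitor markers listed for the check were measured, with summed levels of 395 to 944 CPM. The 5 endothelial markers summed to 0.591 to 2.81 CPM in WT NO, 1.48 to 2.33 in WT RA, 1.07 to 2.01 in KO NO and 6.15 to 13.3 in KO RA.

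Because KO RA replicate 3 entered the shared estimate of the spread, the hosts' results are given for all 12 libraries and without it. The members' summed level was 6636 CPM in that library and 844 to 3429.6 CPM in the others. With TMM factors it exceeded the mean of the other KO RA libraries for all 10 members, from 1.25 times for Snhg12 and 1.27 times for 1110038B12Rik to 7.07 times for Snhg1 and 14.3 times for Snhg3. Scaled by library totals alone, the ratio stayed above 1 for Gas5 (1.27), Snhg1 (2.22), Snhg3 (4.51), Snhg5 (1.51) and Snhg8 (1.77). It fell below 1 for Snhg6 (0.509), Snhg12 (0.392), Epb41l4aos (0.622), Zfas1 (0.782) and 1110038B12Rik (0.399). The direction of this library's deviation therefore depended on the scaling for 5 of the 10 hosts.

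**Figure D1:**
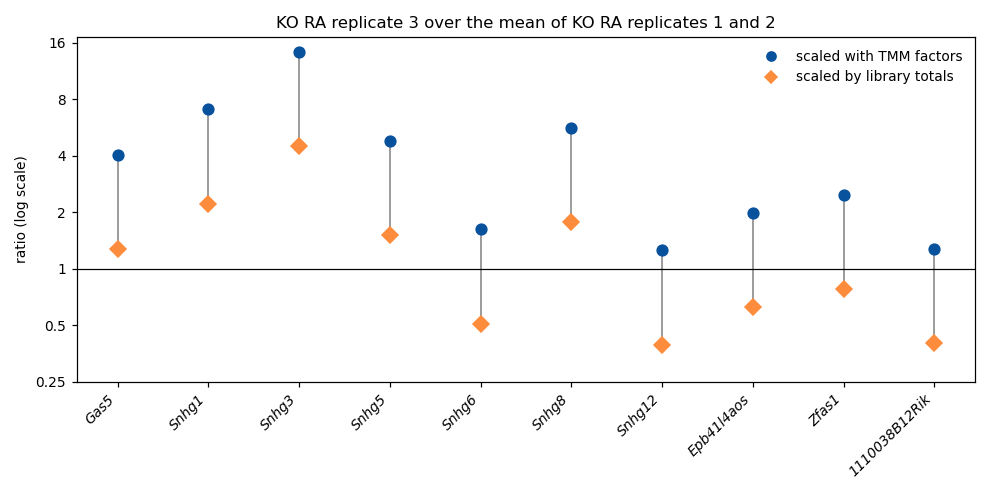
Level in KO RA replicate 3 divided by the mean of KO RA replicates 1 and 2 for each host (log axis), with TMM factors (circles) and by library totals (diamonds). All 10 circles lie above 1, from 1.25 to 14.3, and 5 of the diamonds lie below it.

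In untreated WT cells Snhg1 was the highest, with 354 ± 20.4 CPM (SD, n = 3), followed by Gas5 with 215 ± 24.4 and Snhg8 with 149 ± 1.12, and the libraries of these 3 did not overlap. Snhg3 (129 ± 20.1), 1110038B12Rik (102 ± 9.94), Zfas1 (77.7 ± 26.3) and Snhg5 (77.6 ± 14.5) came next, and each overlapped its neighbour in this order. Snhg6, Epb41l4aos and Snhg12, at 33.2 to 37.4 CPM, formed the lowest group and were not separated from each other. Snhg1 and Gas5 held the first and second place by mean level in every group. In WT RA, Zfas1 stood next after these with 391 ± 42.5 CPM, apart from Snhg8 below it.

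**Figure D2:**
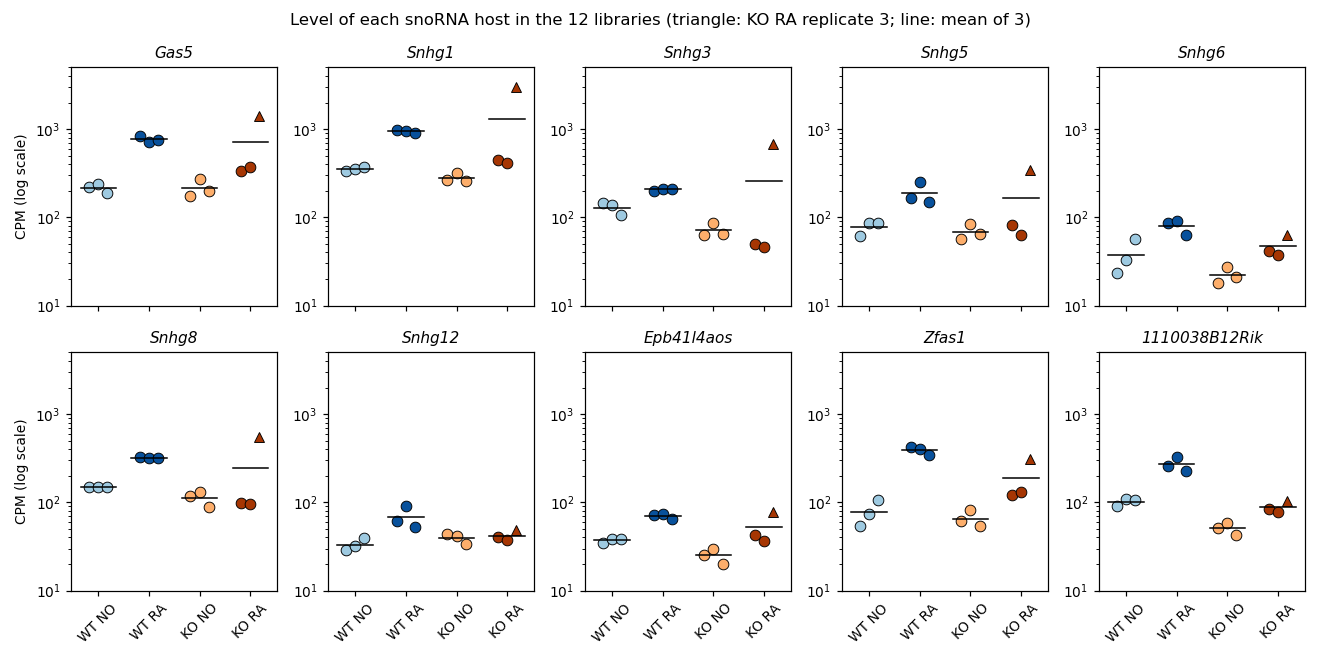
CPM of each host in the 12 libraries (log axis), by group. Circles are libraries, the triangle is KO RA replicate 3 and the line is the mean of 3. In WT RA every library lies above every WT NO library for all 10 hosts, whereas KO RA replicates 1 and 2 lie below all WT RA libraries.

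WT RA against WT NO asks how the hosts responded to RA in cells with intact Faf2. All 10 were higher in every WT RA library than in every WT NO library, by a median log2 fold change of 1.20 (2.30-fold), while the median over all 16502 genes was −0.01. In 15.1% of all genes the groups were apart in this direction. The selection of 1110038B12Rik used the WT RA libraries. Over the other 9 hosts the median was 1.11, and all 9 were positive. Zfas1, which is transcribed against Znfx1, responded most. It had 54.2, 72.9 and 106 CPM in WT NO and 426, 403 and 344 CPM in WT RA, a log2 fold change of 2.33 (SE 0.40, 5.03-fold). Its groups were far apart and it passed the test (edgeR adjusted p = 0.0368).

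Gas5 had 219, 237 and 189 CPM in WT NO and 833, 709 and 752 CPM in WT RA, 3.55-fold higher (log2 1.83, SE 0.50, edgeR adjusted p = 0.151). Snhg1 had 337, 349 and 377 CPM and then 985, 952 and 910.4 CPM, 2.68-fold higher (log2 1.42, SE 0.63). In both genes the treated and untreated libraries lay far apart. Snhg8, host of an H/ACA snoRNA, was very even, at 148, 150.2 and 149 CPM in WT NO and 329.7, 316 and 319 CPM in WT RA (log2 1.11, SE 0.56). Snhg5 had 60.8, 85.6 and 86.4 CPM before and 166, 252 and 151 CPM after RA (log2 1.29, SE 0.55). The spread of Snhg5 was wider than that of Snhg8, and its groups were still apart. Snhg3, host of the U17 snoRNAs that act in the processing of ribosomal RNA, showed the smallest difference, from 144, 137 and 106 CPM to 200.2, 211 and 211 CPM (log2 0.68, SE 0.81).

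The 3 least abundant hosts behaved alike in direction. Snhg6 had 23.2, 32.8 and 56.2 CPM in WT NO and 86.1, 91.2 and 63.9 CPM in WT RA (log2 1.10, SE 0.34). Snhg12 had 28.8, 31.7 and 39.0 CPM and then 61.7, 90.9 and 52.4 CPM (log2 1.04, SE 0.25). Epb41l4aos had 34.8, 38.3 and 38.3 CPM and then 71.4, 73.9 and 64.0 CPM (log2 0.91, SE 0.28). In all 3 the lowest treated library lay above the highest untreated one, narrowly so in Snhg6. For 1110038B12Rik, with 91.2, 110.1 and 106 CPM in WT NO and 258, 331 and 227 CPM in WT RA (log2 1.41), no test is given, since its selection used the WT RA libraries.

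Zfas1 was, from all 12 libraries, the only one of these 9 hosts to pass the test, and 0.321% of all genes were called higher. Without KO RA replicate 3, a library that belongs to neither group, all 9 rose, against 5.65% of all genes, with fold changes close to those above (log2 2.33 for Zfas1 and 0.69 for Snhg3). The call of Zfas1 was lost when any 1 of the other 11 libraries was left out (adjusted p = 0.0528 to 0.193). Without KO RA replicate 3 the adjusted p of the 9 ran from 0.000265 (Snhg1) to 0.0371 (Snhg6). Over the alternatives tried, the adjusted p of Zfas1 ran from 1.93e-05 to 0.193 and that of Snhg3 from 0.0172 to 0.926. Scaled by library totals all 10 stayed higher, by a median of 0.95, while the median of all genes moved to −0.26. Genes of ribosomal proteins also took more of the counts, from 17.8% to 20.6% in WT NO and from 23.6% to 25.6% in WT RA, and summed mesenchymal markers (7 of 7 tested) went from 4.40 to 36.1 CPM in WT NO to 40 to 109 CPM in WT RA. Summed neuronal markers (8 of 8) went from 81.7 to 109.6 CPM to 142 to 161 CPM, and neural progenitor markers from 509 to 537 CPM to 565 to 768 CPM. Of the 8 neuronal markers 4 had positive and 4 negative fold changes. Mean Stmn2 went from 60.1 to 93.6 CPM and Rbfox3 from 2.37 to 0.353 CPM. Of the 8 progenitor markers 5 had positive and 3 negative fold changes. Mean Vim went from 204 to 331 CPM, and Otx2 from 149 to 123 and Nes from 49.2 to 38.3 CPM. The part of these shares and markers in the hosts' response was not tested. In bulk samples a change in the mix of cells and a change in RNA per cell cannot be told apart.

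KO NO against WT NO asks whether the hosts differed with Faf2 genotype before RA. Lower values in every KO library were found for 5 of the 10, namely Snhg1, Snhg3, Snhg8, Epb41l4aos and 1110038B12Rik, against 15.2% of all genes, and 0 were higher in every KO library, against 15.5%. The median log2 fold change was −0.37, beside −0.02 over all genes. The host 1110038B12Rik had 51.2, 59.0 and 43.2 CPM in KO NO, a log2 fold change of −1.0 (SE 0.23) from WT NO. All 3 KO values lay well under the lowest WT value of 91.2 CPM. Snhg3 had 63.5, 86.6 and 64.2 CPM in KO NO, 1.81-fold below WT NO (log2 −0.86, SE 0.81).

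Epb41l4aos, transcribed against Epb41l4a, had 25.6, 29.9 and 19.8 CPM in KO NO, 1.48-fold below WT NO (log2 −0.56, SE 0.28). Snhg1 had 266, 321 and 255 CPM (log2 −0.34, SE 0.62) and Snhg8 had 119, 129.6 and 88.3 CPM (log2 −0.41, SE 0.56). These 3 were lower in every KO library by a smaller margin. Gas5, at 173, 274 and 201 CPM, lay on both sides of WT NO (log2 0.00, SE 0.48). Zfas1 (61.1, 81.4 and 53.8 CPM), Snhg5 (56.2, 84.2 and 64.5 CPM), Snhg6 (17.8, 27.5 and 21.2 CPM) and Snhg12 (44.1, 41.2 and 33.7 CPM) overlapped WT NO as well. Snhg12 was the only member besides Gas5 with a mean above WT NO (log2 0.26, SE 0.24).

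For this comparison edgeR called 0 of the 10 hosts from all 12 libraries, where 0.351% of all genes were called lower, and 2 had an unadjusted p under 0.05. DESeq2 called 1 host lower, where it called 498 of all 16502 genes lower, and gave no adjusted p for Snhg1, Snhg3 and Snhg8. By limma-voom 3 hosts were called, where 21.7% of all genes were. In edgeR the nearest host was 1110038B12Rik (adjusted p = 0.0687). Without KO RA replicate 3, which is in neither group, 1110038B12Rik (adjusted p = 0.00575), Snhg3 (0.00812) and Epb41l4aos (0.0434) fell, against 4.35% of all genes. Over the alternatives their adjusted p ran from 0.000727 to 0.535, from 0.00326 to 0.983 and from 0.0151 to 0.950. The exons of Snhg3 share 633 of their 986 bp with Rcc1 on the same strand, so the authors' estimate had to divide reads between both genes, and its level is uncertain.

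KO RA against KO NO asks for the same response in KO cells and shares the KO NO libraries with the comparison above. The values of KO RA replicates 1 and 2 differed from those of replicate 3 in most hosts. Gas5 had 333, 371 and 1422 CPM in KO RA replicates 1, 2 and 3, and Snhg1 had 444, 412 and 3029.9 CPM. Both lay above every KO NO library in all 3. Snhg3 had 49.6, 45.6 and 683 CPM, so that replicates 1 and 2 were under every KO NO library and replicate 3 far over them. Snhg8 had 98.8, 95.9 and 549 CPM and Snhg5 had 82.1, 62.6 and 347 CPM, with replicates 1 and 2 inside the range of KO NO. Zfas1 had 120.1, 132 and 313 CPM, Snhg6 41.3, 37.1 and 63.5 CPM, Epb41l4aos 43.0, 36.4 and 78.6 CPM and 1110038B12Rik 84.5, 78.2 and 103 CPM, all above KO NO. With Gas5 and Snhg1, 6 of the 10 thus lay above every KO NO library in all replicates, against 13.2% of all genes. Snhg12, at 40.8, 37.1 and 48.6 CPM, overlapped KO NO.

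In KO cells the members' median log2 fold change was also 1.20 with all 12 libraries, and without KO RA replicate 3 it was 0.62 (1.54-fold). The selection of 1110038B12Rik used the KO RA libraries, and over the other 9 hosts these medians were 1.26 and 0.60. Of the 9 hosts tested, Zfas1 rose with all libraries (log2 1.52, SE 0.39, edgeR adjusted p = 0.0475), where 3.89% of all genes were called higher. Its adjusted p ran from 0.00223 to 0.220 over the alternatives, and the call was lost without WT NO replicate 1 or 2 or any 1 library of WT RA or KO NO (0.0636 to 0.187). Without replicate 3, 4 of the 9 rose, namely Zfas1 (log2 0.93, adjusted p = 0.0309), Gas5 (0.69, 0.0265), Epb41l4aos (0.65, 0.0225) and Snhg1 (0.60, 0.00995), against 8.48% of all genes. With all libraries the last 3 had 1.71, 1.07 and 2.21. Their adjusted p ran up to 0.281, 0.469 and 0.289 over the alternatives. Snhg3 turned, from 1.86 with all libraries to −0.60 without replicate 3, where it fell (adjusted p = 0.0347, range 0.0347 to 0.613), as did 7.54% of all genes. Snhg8 turned as well, from 1.14 to −0.22, and Snhg5 went from 1.26 to 0.07 and Snhg12 from 0.09 to −0.04. Snhg6 went from 1.09 to 0.81 (SE 0.32, adjusted p = 0.111), and neither fit called any of these 4. The sign of Snhg12 also turned under library totals with all libraries (−0.23). The share of counts in genes of ribosomal proteins was 16.9% to 19.9% in KO NO and 18.5% to 18.7% in KO RA replicates 1 and 2, and summed mesenchymal markers were 5.86 to 8.29 CPM in KO NO and 117 to 251 CPM in KO RA. Summed neuronal markers were 72.3 to 89.8 CPM and 144 to 209 CPM, with 6 positive and 2 negative fold changes. Among them mean Stmn2 went from 51.1 to 99.0 CPM and Rbfox3 from 1.62 to 0.445 CPM. Summed neural progenitor markers were 395 to 445 CPM and 820.2 to 944 CPM, with 4 of 8 called higher. In that sum mean Vim went from 130.3 to 542 CPM. Otx2 went from 152 to 68.6 CPM, the 1 negative fold change beside 7 positive ones. Of the endothelial markers given above, 3 of the 4 tested were called higher here. The part of these cells' markers in these values was not tested.

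**Figure D3:**
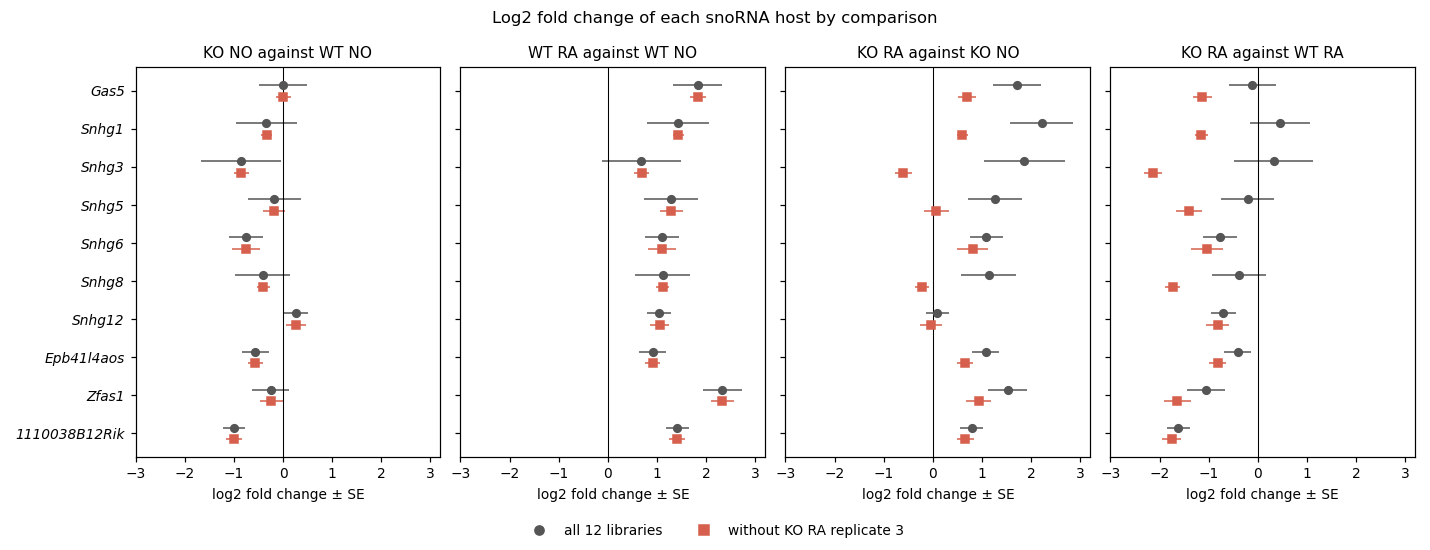
Log2 fold change of each host, with its SE, in 4 comparisons, from all 12 libraries (circles) and without KO RA replicate 3 (squares). Both fits lie together in the comparisons without KO RA, and in KO RA against KO NO the value of Snhg3 moves from 1.86 to −0.60.

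The difference between the RA responses of KO and WT cells was tested as an interaction. With all 12 libraries the members' median was −0.02 and edgeR called 0 of the 9 hosts, 1 at an unadjusted p under 0.05. No gene of the 16502 was called by edgeR (0%). DESeq2 called 0 hosts but gave no adjusted p for Snhg1, Snhg3 and Snhg8. By limma-voom 5 hosts were called, where 599 of the 16502 genes were called higher and 402 lower. The hosts' edgeR values ran from −0.95 (Snhg12) to 1.18 (Snhg3). Without KO RA replicate 3 the median was −1.11 beside −0.00 over all genes. The selection of 1110038B12Rik used libraries that enter the interaction, and without it the median of the other 9 was −1.14, all 9 being negative, and −0.01 with all libraries. Snhg8 (−1.33, SE 0.20, adjusted p = 0.0191), Snhg3 (−1.28, SE 0.22, 0.0305) and Snhg1 (−0.83, SE 0.17, 0.0468) then passed, against 0.537% of all genes in this direction. Their adjusted p reached 1.00 under other alternatives. Snhg8 thus rose 2.16-fold with RA in WT cells and had 0.860 times its untreated level in KO cells. Gas5 (−1.14, adjusted p = 0.0548), Zfas1 (−1.40, 0.0733), Snhg12 (−1.08, 0.0998) and Snhg5 (−1.22, 0.101) had differences of like size that missed the threshold, with adjusted p down to 0.0366, 0.00969, 0.0341 and 0.0514 over the alternatives. Snhg6 (−0.29) and Epb41l4aos (−0.26) had the smallest differences. With library totals and without KO RA replicate 3, a setting added after the values were seen, the median was −0.73 while all genes moved to 0.38. Snhg8 (−0.94) and Snhg3 (−0.90) passed there, Snhg1 (−0.43) did not, and Snhg6 (0.12) and Epb41l4aos (0.13) turned positive.

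KO RA against WT RA, which shares its libraries with the comparisons above, was the contrast in which 1110038B12Rik had been selected, so its values are a description and no p-value is given. With all libraries the members' median was −0.39, and without KO RA replicate 3 it was −1.28, or 2.42-fold lower. With KO RA replicates 1 and 2 alone, all 10 hosts lay below every WT RA library, where 22.2% of all genes did so, and with replicate 3 included 4 did, where 10.9% did. Those 4 were Snhg6, Snhg12, Zfas1 and 1110038B12Rik. The fit counted 1 host lower with all libraries, 1110038B12Rik itself, beside 0.358% of all genes, and 9 without replicate 3, beside 5.44%, and nothing is read from these counts. Without replicate 3 the differences ran from −0.82 (Snhg12 and Epb41l4aos) to −2.13 (Snhg3), with 1110038B12Rik at −1.75. With all libraries they ran from 0.45 (Snhg1) to −1.62 (1110038B12Rik).

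**Figure D4:**
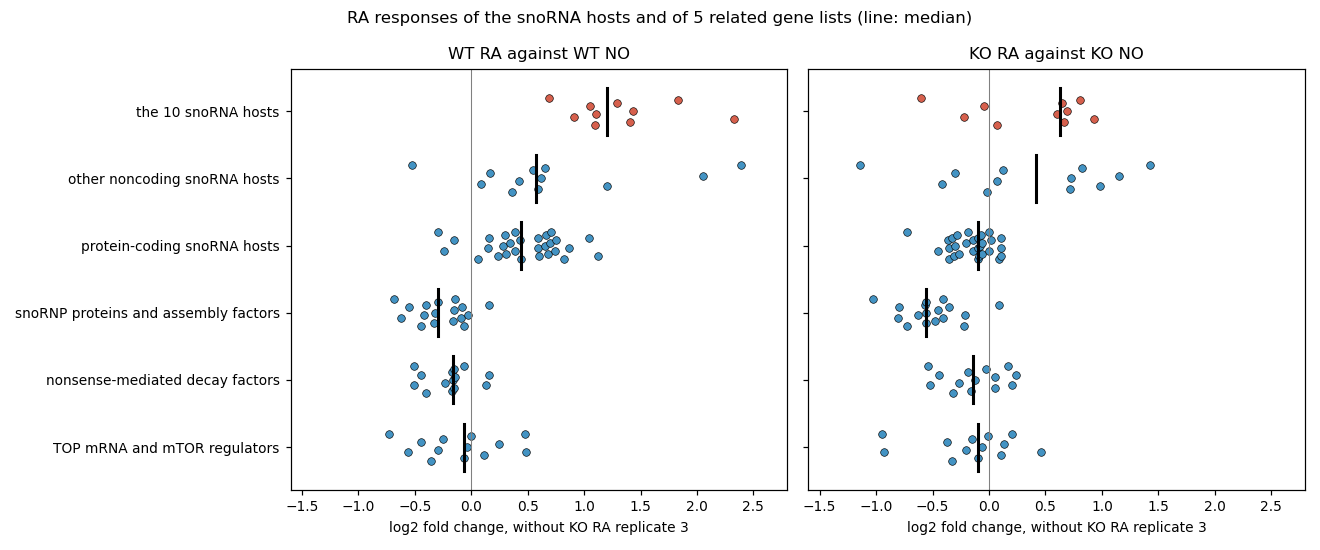
Log2 fold change after RA, without KO RA replicate 3, of the 10 hosts and of the tested genes of 5 related lists in WT (left) and KO cells (right). Points are genes and the line is the median. The hosts' median is 1.20 in WT and 0.62 in KO cells, and that of the protein-coding hosts is 0.44 and −0.10.

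The hosts were set beside 5 lists of related genes. Values of these lists are given without KO RA replicate 3 unless stated. Without it, 5.65% of all genes rose and 5.13% fell in WT RA against WT NO, and 8.48% and 7.54% in KO RA against KO NO, while the median of all genes with all libraries was 0.11 in the latter. In the fit of all 12 libraries, Shq1 and Mtor were the only genes of these lists that passed in the 3 comparisons tested, both in KO RA against KO NO. The protein-coding snoRNA hosts, mostly genes of ribosomal proteins and translation factors, were all measured (29 of 29). Without KO RA replicate 3, 14 rose with RA in WT cells and 0 fell, with a median of 0.44. In KO cells, 0 rose and 2 fell by edgeR, 4 had an unadjusted p under 0.05, and the median was −0.10, with 7 positive. That direction turned with KO RA replicate 3, where the median was 0.54 with 22 positive. Rpl23 had 0.66 (SE 0.13, edgeR adjusted p = 0.0142) in WT and 0.11 (SE 0.15, 0.673) in KO cells, Rpl5 0.68 and 0.11, and Rpl21 0.59 and 0.02. Eif4a2, an RNA helicase of translation initiation, had 1.04 (SE 0.12, adjusted p = 0.00161) and 0.11 (SE 0.13). Taf1d, a subunit of the RNA polymerase I factor SL1, had 0.43 and 0.00. With all libraries the values in KO cells were 1.45 for Rpl23, 1.55 for Rpl5, 1.67 for Rpl21, 0.61 for Eif4a2 and 1.47 for Taf1d. With all 12 libraries edgeR called 0 of the 29 in either comparison, 3 and 4 at an unadjusted p under 0.05, DESeq2 0 in both, and limma-voom 19 and 2, where limma-voom called 21.7% and 27.5% of all genes.

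The 12 tested of 14 other noncoding hosts had medians of 0.57 in WT and 0.42 in KO cells without KO RA replicate 3, and 2 and 1 rose. With all libraries the median in KO cells was 1.13. The snoRNA host 2410006H16Rik had the size of response of the leading members, with 2.05 (SE 0.19, edgeR adjusted p = 0.000530) in WT and 0.73 (SE 0.20, 0.0317) in KO cells. Its interaction was −1.31 (SE 0.28, adjusted p = 0.0486). With all 12 libraries its values were 2.04, 1.63 and −0.42, and none passed. The imprinted host Rian rose in WT cells from a level near 0 (2.39, SE 0.66, adjusted p = 0.0448), and Snhg14 had 0.62 (SE 0.29) there and 0.72 (SE 0.31) in KO cells, which did not pass.

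Genes whose products bind or assemble snoRNAs had mostly negative values once KO RA replicate 3 was left out. Of the 17 snoRNP proteins and assembly factors, 16 were negative with RA in WT cells (median −0.29) and 16 in KO cells (median −0.56) without KO RA replicate 3, and 3 and 6 fell. With all libraries 10 were negative and 7 positive in KO cells (median −0.14, highest 1.82). Shq1, an assembly factor of H/ACA particles, fell in KO cells with all libraries too (−0.81, SE 0.21, edgeR adjusted p = 0.0467). Nop56, a core protein of box C/D particles and itself a snoRNA host, had −0.29 (adjusted p = 0.113) in WT and −0.73 (0.00402) in KO cells. Ruvbl2 (−0.16 and −0.56) was called in KO cells, and Gar1 (−0.55 and −0.63) and Dkc1 (−0.32 and −0.35) in neither. With KO RA replicate 3 the value in KO cells was −0.05 for Nop56 and 0.43 for Dkc1.

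The 14 factors of nonsense-mediated decay had medians of −0.16 in WT and −0.14 in KO cells without KO RA replicate 3, and 1 fell in each, a share near that of all genes. With all libraries the median in KO cells was −0.20. Upf1, the central helicase of that pathway, had −0.51 (SE 0.16, edgeR adjusted p = 0.0701) and −0.44 (SE 0.18, 0.127), and the kinase Smg1 had −0.17 and 0.24. Smg5 fell in KO cells (−0.54, SE 0.14, adjusted p = 0.0248), and Magoh had 0.13 and −0.16, the latter 1.89 with all libraries. Of the 13 regulators of TOP mRNAs and mTOR, 2 fell in each comparison, with a median in KO cells of −0.10, and −0.24 with all libraries. Mtor fell in KO cells with all libraries (−0.90, SE 0.18, edgeR adjusted p = 0.0190) and without replicate 3 (−0.93, SE 0.15, 0.00337), and its value in WT cells was −0.25 (SE 0.13). Larp1 fell in WT cells (−0.56, SE 0.12, adjusted p = 0.0162) and had −0.33 (SE 0.13, 0.117) in KO cells. Eif4ebp1, a translational repressor downstream of mTOR, fell in KO cells (−0.95, SE 0.18, adjusted p = 0.00717), and Cnbp had 0.11 and 0.20, the latter 1.74 with all libraries. In KO NO against WT NO edgeR with all libraries called 0 genes of these 5 lists, none of which had an unadjusted p under 0.05. DESeq2 called 0 there and limma-voom 10 of 84, where it called 21.7% of all genes.

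The genes most like the hosts were sought among 7951 genes by the mean absolute difference between their centred log2 CPM and the hosts' mean profile. Over 12 libraries these were ENSMUSG00000120369, Cox7a2l, Gm4332, Rps18-ps5 and Rps18-ps6, with differences of 0.223 to 0.249. Over 11 libraries, without KO RA replicate 3, they were Rps7, Cdkn1b, ENSMUSG00000120369, Rps7-ps3 and Rps27, with 0.174 to 0.201. Rps7 and Rps27 are genes of ribosomal proteins and Cdkn1b codes for a cell cycle inhibitor, while reads of the pseudogenes cannot be surely told apart from those of their parent genes. Among the hosts themselves, Snhg1 lay nearest to the mean profile over 11 libraries (0.101) and Zfas1 farthest (0.421). ENSMUSG00000120369 was the gene found both ways.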

How the data were processed

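The authors prepared mRNA libraries from 12 cultures, sequenced paired ends and ran nf-core/rnaseq at its defaults (STAR, Salmon) on GRCm39. Per the labels, DESeq2 was among their tools. The authors deposited estimated counts, 1 column a library, which the pipeline derives from TPM and the library total. They are not normalized between libraries. Among 3851 genes above 0 in 1 library, values fell with exonic length (Spearman −0.685), from a median of 10.1 among the shortest genes to 0.806 among the longest, so a count is not a number of fragments, and depth here means these totals. No column was left unused, and 28146 genes were at 0 in all libraries. Fold changes and p-values below were computed from the counts.

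Rounded counts were fitted with edgeR 4.0.16 under R 4.3.3 (filterByExpr with 4 groups, TMM factors, robust quasi-likelihood, 1 coefficient per group, all 12 libraries). Calls needed a p under 0.05 after Benjamini-Hochberg adjustment over 16502 genes, whatever the fold change. SE of a log2 fold change came from the F statistic. Only the edgeR fit of WT RA against WT NO was tested on simulated counts, with the same spread for every gene and no deviating library. The interaction, DESeq2 and limma-voom were not tested in this way. Starts and windows came from GENCODE and GRCm39 with Python 3.11.15 and pysam 0.24.0, and figures from matplotlib 3.10.9.

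The alternatives were DESeq2 1.42.0, its size factors in edgeR, library totals, no filter beyond 1 count, at least 10 counts in every library, the groups compared alone, limma-voom (limma 3.58.1) with quality weights, the replicate number as a block, each library left out, and, added after seeing the data, library totals without KO RA replicate 3. Named genes were the 10 members, in each of 5 lists the genes called by all 12 libraries in the 3 comparisons or else up to 3 with the smallest adjusted p there, Taf1d, Larp1, Upf1, Smg1, Nop56 and Dkc1, and the 5 genes most like the members. Some list genes were named beyond this rule, among them Eif4a2, Ruvbl2, Gar1, Eif4ebp1 and Cnbp. Members and lists were chosen with earlier results of these data known.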

Additional observations from a re-analysis of the deposited data

Results flagged for a closer look

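The RA response of 3 hosts differed between genotypes by the interaction test once KO RA replicate 3 was left out. The difference of the log2 responses, KO minus WT, was −0.83 for Snhg1, −1.28 for Snhg3 and −1.33 for Snhg8 (edgeR adjusted p = 0.0468, 0.0305 and 0.0191). With all 12 libraries the same differences were 0.78, 1.18 and 0.03. The interaction then passed in edgeR for none of the 9 hosts tested, with 1 at an unadjusted p under 0.05. By limma-voom 5 passed, where 599 of all 16502 genes were called higher and 402 lower. DESeq2 called 0 hosts, but it gave no adjusted p for Snhg1, Snhg3 and Snhg8 and so could not call them. Over the alternatives the smallest adjusted p of these 3 were 0.0468, 0.0305 and 0.0165, and the largest were 1.00.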

How the results depend on the processing

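The number of hosts called changed with the setting, and the cause was not tested. In KO NO against WT NO, where edgeR with all libraries called 0, DESeq2 called 1, the groups compared alone 2, limma-voom 3 and library totals without KO RA replicate 3 called 2. In WT RA against WT NO the count of 2 became 4 by DESeq2, 1 with its size factors and 1 with no filter. It became 0 by library totals, which called 0 of all genes there, and 8 with the groups compared alone. It was 10 by limma-voom and 9 by library totals without KO RA replicate 3, and 1110038B12Rik counts among these. Over the other 9 hosts the counts were 1 by edgeR, 3 by DESeq2 and 9 by limma-voom. In KO RA against KO NO the count of 1 became 5 by DESeq2, 2 with at least 10 counts in every library and 0 with no filter. It was also 0 with the groups compared alone or by library totals. It was 6 by limma-voom and 5 by library totals without KO RA replicate 3. Over the 9 hosts other than 1110038B12Rik the counts were 1 by edgeR, 4 by DESeq2 and 5 by limma-voom. In KO RA against WT RA the count of 1 became 0 by library totals or with the groups compared alone. It became 10 by limma-voom and 7 by library totals without KO RA replicate 3. The counts of this contrast, here and below, are a description, since 1110038B12Rik was selected in it, and nothing is read from them. For the interaction the count was 5 by limma-voom and 2 by library totals without KO RA replicate 3, in place of 0. DESeq2 gave no adjusted p for Snhg1, Snhg3 and Snhg8. Of all 16502 genes it called 517 higher and 498 lower in KO NO against WT NO. The counts were 511 and 413 in WT RA against WT NO, and 1640 and 992 in KO RA against KO NO. By limma-voom 21.7%, 21.7% and 27.5% of all genes were called in these comparisons. There, 1613 genes were called higher and 1380 lower in KO RA against WT RA, and 599 and 402 for the interaction. Library totals called 123 genes higher and 17 lower in KO RA against KO NO, and 80 and 9 in KO RA against WT RA. Without KO RA replicate 3 they called 803 higher and 490 lower, 528 and 2503, 1543 and 677, 3859 and 310, and 674 and 44, in the order above. Shares of all genes are not given for the groups compared alone or the other filters. When 1 library at a time was left out, the counts of hosts ran from 0 to 3, 0 to 10, 0 to 6, 0 to 9 and 0 to 3 in the same order. The highest came each time without KO RA replicate 3. Leaving out each other library gave 0 in WT RA against WT NO.

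Medians moved to 0.62 by library totals in KO RA against KO NO, to −1.17 by limma-voom in KO RA against WT RA, and for the interaction to −0.61 by library totals, −1.02 by limma-voom and −0.73 by library totals without KO RA replicate 3. Left-out libraries gave 0.62 to 1.67 in KO RA against KO NO, −1.28 to −0.02 in KO RA against WT RA and −1.11 to 0.35 for the interaction, the lowest each time without KO RA replicate 3. Library totals put the median of all genes at −0.26 in WT RA against WT NO and −0.17 in KO RA against KO NO, and their split of calls in KO NO against WT NO was 100 higher and 12 lower in place of 130 and 58.

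Some signs turned. Gas5 in KO NO against WT NO was −0.01 with at least 10 counts and −0.07 by limma-voom, and left-out libraries gave −0.20 to 0.14 for it and −0.46 to 0.05 for Zfas1. In KO RA against KO NO, limma-voom gave −0.52 for Snhg3 and −0.11 for Snhg8, library totals −0.23 for Snhg12, and library totals without KO RA replicate 3 −0.46 for Snhg3 and −0.08 for Snhg8. Left-out libraries gave −0.60 to 2.45 for Snhg3, −0.22 to 1.61 for Snhg8 and −0.04 to 0.22 for Snhg12. For the interaction, DESeq2 and its size factors both gave 0.06 for Gas5, 0.16 for Snhg5 and 0.10 for Snhg6, no filter −0.05 for Snhg8, and at least 10 counts 0.03 for Snhg5 and 0.04 for Snhg6. There, library totals gave −0.61 for Snhg8 and −0.06 for Epb41l4aos, and limma-voom gave −0.78 for Snhg1, −1.09 for Snhg3, −1.23 for Snhg8 and −0.21 for Epb41l4aos. Library totals without KO RA replicate 3 gave −0.43 for Snhg1, −0.90 for Snhg3, −0.94 for Snhg8 and 0.12 for Snhg6. Left-out libraries gave −1.14 to 0.31 for Gas5, −0.83 to 1.30 for Snhg1, −1.28 to 1.77 for Snhg3, −1.22 to 0.45 for Snhg5, −0.40 to 0.28 for Snhg6, −1.33 to 0.50 for Snhg8 and −0.26 to 0.43 for Epb41l4aos.

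Same-numbered libraries did not deviate together (18 correlations from −0.17 to 0.07), so the numbers do not pair the samples. With the replicate block the counts called were 0, 0, 0, 1 and 0 in the order above, Gas5 in KO NO against WT NO was −0.02 and Snhg8 in the interaction −0.25.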

Other observations

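The snoRNAs themselves could hardly be followed in these mRNA libraries. Of the 35 annotated snoRNA genes inside the 10 hosts, 32 were at 0 in all 12 libraries and 3 had counts, namely Snora73a and Snora73b in Snhg3 and Snord22 in Snhg1. Snora73a had 6.02, 16.3 and 2.11 CPM in WT NO, 21.4, 18.8 and 15.0 in WT RA, 26.5, 7.02 and 13.6 in KO NO and 1.40, 2.66 and 29.9 in KO RA. Snora73b ranged from 2.81 CPM in WT NO replicate 3 to 31.2 CPM in KO RA replicate 3. Snord22 was above 0 in 4 libraries, at 29.6 CPM in WT NO replicate 2, 15.7 in WT RA replicate 2, 22.0 in KO NO replicate 1 and 95.1 in KO RA replicate 3, and at 0 in the others. Groups overlapped for all 3 in every comparison of all 12 libraries. Without KO RA replicate 3, Snora73a in KO RA lay below every KO NO and every WT RA library.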
